A study of Mus musculus with 6 samples.

Results

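The tachykinin, bombesin-like and neuromedin peptides and their receptors were followed through 9 of the 32285 genes of the expression matrices, taken by symbol. They were the peptide genes Tac1, Grp, Nmb, Nmu and Nms and the receptor genes Tacr1, Tacr3, Grpr and Nmbr. Single cells were sequenced from 5 autonomic ganglia of mouse pups at postnatal day 5 that carried a Cre transgene and the RosatdT reporter allele, and all 6 libraries shared this genotype and age. In these mice Cre switches on the red reporter tdTomato at the Rosa locus, so every pup carried both alleles and no library served as a control without them. The stellate ganglion (sympathetic), the sphenopalatine ganglion (parasympathetic) and a pelvic library named here pelvic 1 were made in round 1 with version 2 of the chemistry, and the coeliac and lumbar ganglia (sympathetic) and pelvic 2 were made in round 2 with version 3. Ganglion and round cannot be told apart for any ganglion but the pelvic, which alone had 2 libraries, and the labels do not say how many pups stood behind a library.

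The tachykinins (substance P and neurokinin A from Tac1, neurokinin B from Tac2) are short amidated peptides that act on Gq-coupled neurokinin receptors. Tacr1 encodes the receptor preferred by substance P, and Tacr3 the one preferred by neurokinin B. The bombesin-like peptides are gastrin-releasing peptide, from Grp, which acts on the Grpr receptor, and neuromedin B, from Nmb, which acts on Nmbr, while neuromedins U and S (Nmu, Nms) act on the receptors encoded by Nmur1 and Nmur2. All are cut from longer precursors, and in peripheral nerves such peptides are known for contracting smooth muscle, widening vessels and driving gland secretion alongside acetylcholine or noradrenaline.

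Members of a family are recognised by their carboxyl-terminal end, so the 10 codons that end just before the amidation glycine are shown from the coding transcripts of GENCODE M21 on GRCm38, 5′ to 3′, with the codons of each family's carboxyl-terminal signature in capitals, which in the tachykinins includes 1 position that differs between peptides. Both Tac1 peptides lie on the plus strand of chromosome 6, substance P in exon 3 of 7 (chr6:7556735-7556764) and neurokinin A in exon 6 (chr6:7559101-7559130). The end of neurokinin A was in 2 of 4 coding Tac1 transcripts and the end of substance P in 3, so a Tac1 count does not say which peptide a neuron makes. Tac2 is on the plus strand (chr10:127729116-127729145, exon 5 of 7), Nmb on the minus strand (chr7:80904296-80904839, exons 1 and 2 of 3), Nmu on the minus strand (chr5:76335854-76337458, exons 8 and 9 of 10) and Nms on the plus strand (chr1:38947581-38948637, exons 8 and 9 of 10). The last 3 stretches are joined across an intron.
Tac1, substance P: cccaagcctcagcagTTCTTTGGATTAATG
Tac1, neurokinin A: cataaaacagattccTTTGTTGGACTAATG
Tac2, neurokinin B: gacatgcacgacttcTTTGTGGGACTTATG
Nmb, neuromedin B: ggcaacctctgggcgaccGGTCACTTCATG
Nmu, neuromedin U: aagggatacTTTTTATTCAGGCCACGCAAC
Nms, neuromedin S: aggccatttTTCCTTTTCAGGCCTAGGAAT
The Nmu and Nms ends shared 18 of 30 bases and 7 of 10 encoded residues. Neurokinin B shared 19 bases and 6 residues with neurokinin A, against 15 bases and 4 residues with substance P. Nmb overlaps the gene Sec11a on the same strand and its counts are uncertain for that reason. Grp, Nmbr and Nmu overlap annotated genes on the opposite strand only.

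Of 21442 retained cells, 7014 were neurons by neuronal and glial marker genes, from 237 in the coeliac to 2716 in the stellate library, with median depths of 26659 to 108442 unique molecular identifiers (UMIs, counted transcripts) per neuron. Levels are given in counts-per-million units (CPM), a gene's UMIs over all UMIs of the summed cells, with 95% exact Poisson intervals, and shares as the percent of neurons with at least 1 UMI, which rise with depth. Both kinds of interval cover counting error only. Th, of noradrenaline synthesis, was at 995, 658 and 451 CPM in stellate, coeliac and lumbar neurons and at 1.86 CPM in sphenopalatine neurons, and the cholinergic gene Slc18a3 at 263 CPM in sphenopalatine and at 2.67 to 28.5 CPM in the sympathetic neurons, so that the defining genes were present where the labels place them. Libraries of a round shared up to 94 cell barcodes. The most member UMIs on such barcodes were 153 of the 9636 Tac1 UMIs of sphenopalatine neurons, and no member gained or lost a 4-fold difference within a round (below) without those cells. The test of pelvic neurons was not rerun without them.

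Tac1 was above all a sphenopalatine gene. It gave 9636 UMIs there, or 128 CPM (125 to 130), in 54.7% of neurons. The other libraries held 59 UMIs in stellate (0.745 CPM), 86 in pelvic 1 (2.38 CPM), 67 in pelvic 2 (1.81 CPM), 3 in lumbar (0.0414 CPM) and 0 in coeliac neurons, where 0 of 237 neurons allows a share of up to 1.27% of neurons with a UMI (3 counts of the total), which does not limit the share that expresses the gene. Sphenopalatine neurons thus stood 171-fold above stellate neurons (interval 133 to 225) and 53.5-fold above pelvic 1 neurons (43.3 to 67.0), both of the same round. After each neuron was thinned to 4000 UMIs, a Tac1 transcript was left in 23.1% of sphenopalatine, 0.223% of stellate and 0.343% of pelvic 1 neurons. Sphenopalatine neurons thus stayed far above the other libraries of round 1 at equal depth. The stellate and pelvic 1 shares rest on few neurons, since only 20 and 16 had a UMI before thinning.

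Within the sphenopalatine ganglion Tac1 was concentrated in 2 groups of neurons, found by clustering that library without the 9 genes. Cluster 4, 207 neurons led by Gpr50, Penk, H19 and Pdlim3, held 5408 UMIs at 672 CPM with Tac1 in 100% of its neurons, and cluster 9, 78 neurons led by genes that include Lgals3, Vwc2 and Piezo2, held 1020 UMIs at 384 CPM with Tac1 in 96.2%. The remaining clusters of neurons ranged from 14.9 CPM to the 94.3 CPM of a cluster led by genes that include the glial genes Fabp7 and Apoe. An exception was 15 neurons led by collagen genes at 258 CPM. Cluster 3, 295 neurons led by Pcp4l1, Rxfp1 and Tenm2, was at 91.9 CPM. It held 1037 UMIs, more than the smaller cluster 9. Some Tac1 was also counted outside neurons. Sphenopalatine glia had 77 UMIs at 17.0 CPM (13.4 to 21.3) in 7.08% of cells, at a median depth of 4745 UMIs. When cells were thinned to 2000 UMIs, 3.27% of glia and 16.3% of neurons kept a transcript. Cluster 1, the largest with 422 neurons, had a similar level, 14.9 CPM, at a median depth of 30670.5 UMIs. How much of the Tac1 in glia and in such clusters was free RNA was not tested. In the thinned data, Penk, the enkephalin precursor gene, was detected in 67.0% of Tac1-positive and 22.4% of Tac1-negative neurons, and the vesicular acetylcholine transporter gene Slc18a3 in 73.9% and 52.4%. Nos1, which makes nitric oxide, went the other way, with 73.7% against 92.5%, and Vip was near saturation in both at 97.5% and 99.3%. Penk was also a leading gene of cluster 4, where all neurons had Tac1, and detection together outside that cluster was not tested.

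**Figure D1:**
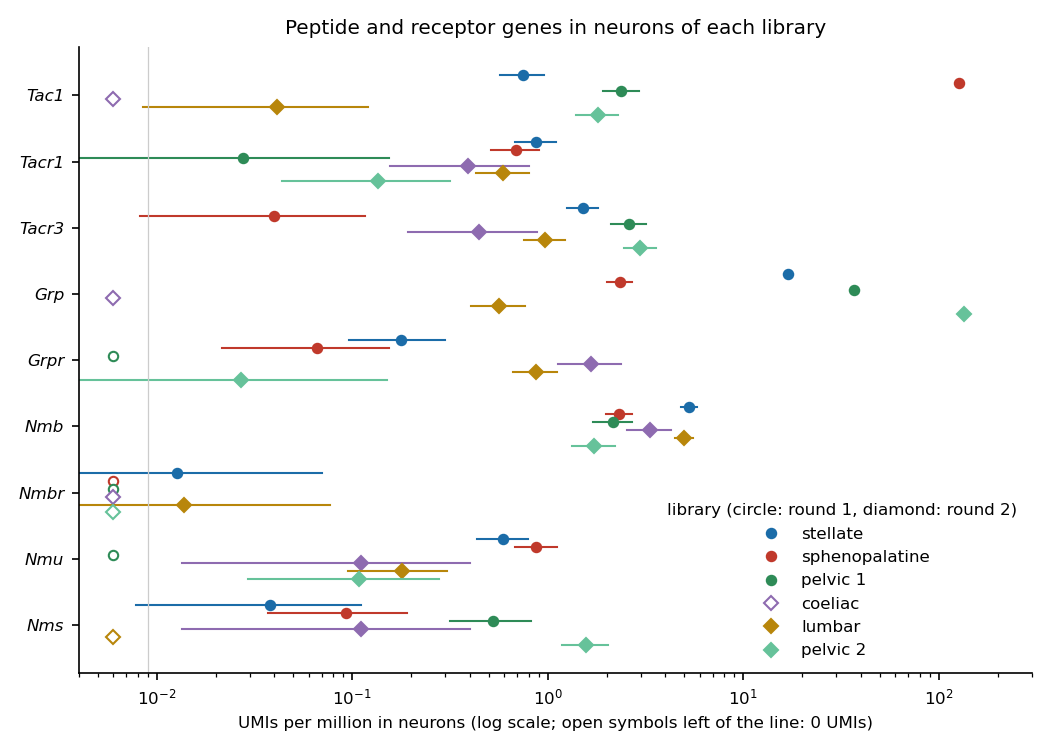
Level (CPM) in the neurons of each library (log scale) for the 9 genes, with 95% Poisson intervals. Circles are round 1 and diamonds round 2, and open symbols left of the line are libraries with 0 UMIs. Tac1 stands at 128 CPM in sphenopalatine neurons and Grp at 135 and 37.1 CPM in the pelvic libraries, while the 4 receptor genes stay under 3 CPM throughout.

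The tachykinin receptors were sparse. Tacr1 had 69 UMIs in stellate (0.872 CPM), 52 in sphenopalatine (0.689 CPM) and 43 in lumbar neurons (0.594 CPM), 3 values whose intervals overlap, followed by 7 in coeliac neurons (0.389 CPM). The pelvic libraries held only 1 and 5 UMIs, at 0.0277 and 0.135 CPM, and 4 of those 6 came from P3-like neurons. Tacr3 differed from Tacr1 in the place of the pelvic and sphenopalatine libraries, while stellate, lumbar and coeliac neurons kept the same order. It was highest in pelvic 2 (110 UMIs, 2.97 CPM) and pelvic 1 neurons (94 UMIs, 2.61 CPM), whose intervals overlap. Stellate (120 UMIs, 1.52 CPM), lumbar (70 UMIs, 0.966 CPM) and coeliac neurons (8 UMIs, 0.445 CPM) followed. Only 3 UMIs were found among all sphenopalatine neurons, the library with the most Tac1. Each of these receptor genes had at most 3 UMIs in any named non-neuronal class of any library.

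Grp was mainly a pelvic gene. It gave 1337 UMIs in pelvic 1 (37.1 CPM, 35.1 to 39.1, 28.3% of neurons) and 4978 in pelvic 2 (135 CPM, 131 to 138, 38.9% of neurons), and both stood above every other ganglion. Stellate neurons followed with 1345 UMIs (17.0 CPM, 6.08% of neurons), then sphenopalatine with 176 (2.33 CPM) and lumbar with 41 (0.566 CPM), and coeliac neurons had 0. However, the levels outside the pelvic ganglion rested on very few cells. A neuron of stellate cluster 3 alone carried 712 of the 1345 stellate UMIs, and without it the stellate level was 8.00 CPM. The same was seen in the sphenopalatine library, where 1 neuron held 119 of 176 UMIs (0.756 CPM without it), and in the lumbar library, where 1 neuron held 21 of 41. The pelvic levels were spread over more neurons, with at most 58 of 1337 and 308 of 4978 UMIs in any neuron and 35.5 and 127 CPM without it.

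Within each round a 4-fold difference of CPM was counted among genes at 10 CPM or more in either library, with no test, since each side was 1 library. Sphenopalatine against stellate neurons passed for 4.74% of genes and for both members that reached 10 CPM, Tac1 (above) and Grp, which was 7.28-fold higher in stellate neurons (6.22 to 8.57). Pelvic 1 against stellate neurons passed for 3.8% of genes and not for Grp, the only member that reached 10 CPM, at 2.18-fold (2.02 to 2.36). Both Grp results depended on the highest neuron of each library. Without it the stellate level fell under 10 CPM, so Grp was no longer counted against sphenopalatine neurons and Tac1 was the member that passed. The Grp ratio of stellate over sphenopalatine neurons itself rose to 10.6-fold (8.06 to 14.1). Grp in pelvic 1 became 4.44-fold higher than in stellate neurons (4.03 to 4.89). Pelvic 1 against sphenopalatine neurons passed for 2.95% of genes, and for both members at 10 CPM, with Tac1 lower and Grp 15.9-fold higher in the pelvic library (13.6 to 18.7), or 47.0-fold without the highest neurons. In round 2, coeliac and lumbar neurons differed for 0.535% of genes and no member reached 10 CPM. Grp, again the member that did, was 238-fold higher in pelvic 2 than in lumbar neurons (175 to 332), where 3.88% of genes passed. Against the 0 UMIs of coeliac neurons it was 806-fold higher, taking 3 UMIs per library as the floor (lower limit of the interval 655), where 3.97% of genes passed.

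**Figure D2:**
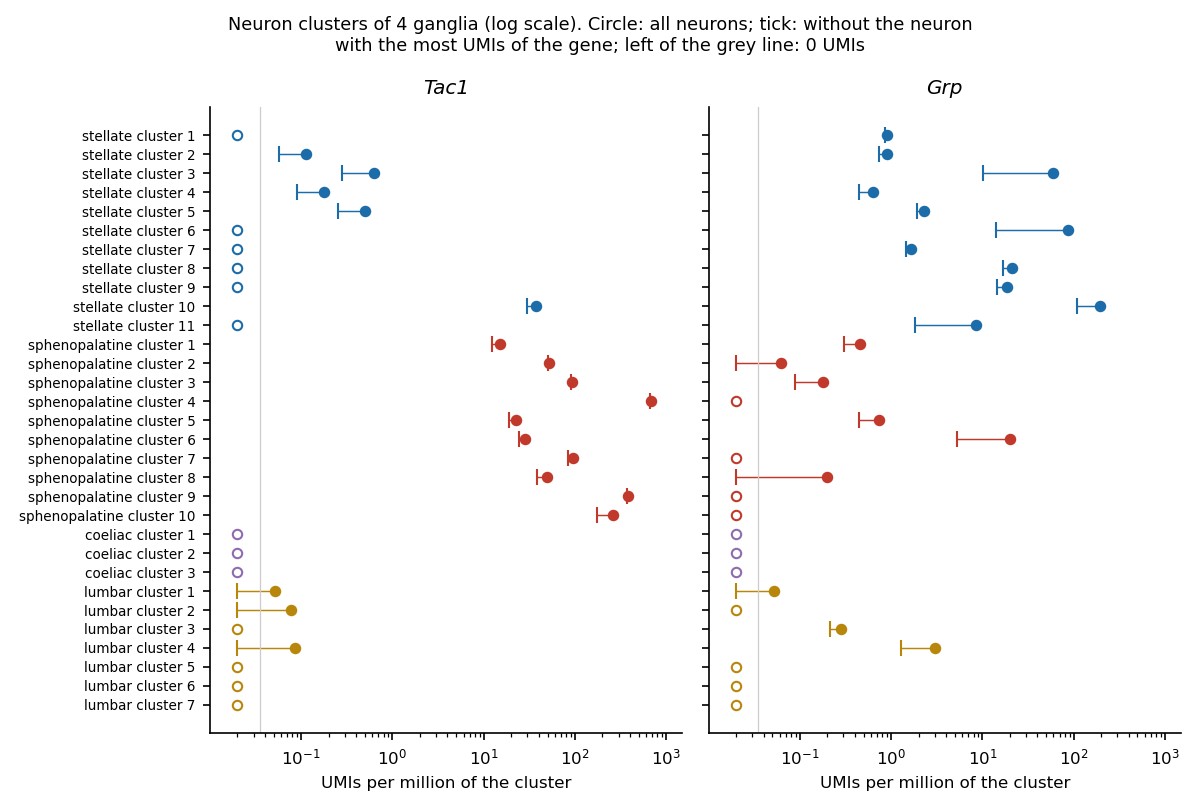
Tac1 and Grp in each neuron cluster of the 4 non-pelvic ganglia, in CPM of the cluster (log scale). Circles are all neurons, ticks the value without the neuron that holds the most UMIs of the gene, and open circles left of the grey line are clusters with 0 UMIs. Tac1 in sphenopalatine cluster 4 barely moves (672 to 665 CPM), while Grp in stellate cluster 3 falls from 59.6 to 10.1 CPM.

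The 59 Tac1 UMIs of the stellate ganglion came from 20 neurons. There, the small cholinergic-like cluster 10, 26 neurons led by Vip, Sst and Slc18a3, held several members together. Tac1 was at 42 of the 59 stellate UMIs (37.7 CPM, 34.6% of neurons), Tacr3 at 25 UMIs (22.4 CPM, 30.8%) and Grp at 218 UMIs (196 CPM, 69.2%), or 109 CPM without a neuron with 103. Cluster 9, 28 neurons led by Adgrg6, Slc5a7 and Pnoc, had Grp in 39.3% of neurons at 18.6 CPM. In cluster 6, 145 of 173 Grp UMIs came from 1 neuron, and the level fell from 86.0 to 14.1 CPM without it. Clusters 1, 2, 4 and 7 had Grp at 0.626 to 1.67 CPM, beside 1.94 CPM in the shallower stellate glia, and the part of free RNA in these low values was not tested. The cholinergic-like cluster 6 of the lumbar library, 55 neurons led by Sst, Vip and Calca, had Tacr3 at 45 of 70 UMIs (11.5 CPM, 21.8% of neurons) but 0 UMIs of Tac1 and of Grp. The libraries are of different rounds, and this difference was not tested.

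Grpr, the receptor for gastrin-releasing peptide, was barely detected in the pelvic libraries, where its ligand was high. It had 0 UMIs in pelvic 1 neurons, which allows a share of up to 0.342% of neurons with a UMI, and 1 in pelvic 2. Its highest levels were in coeliac (30 UMIs, 1.67 CPM, 7.17% of neurons) and lumbar neurons (63 UMIs, 0.870 CPM, 5.91%), followed by stellate (14 UMIs, 0.177 CPM) and sphenopalatine neurons (5 UMIs, 0.0663 CPM). Of the coeliac UMIs, 21 came from cluster 2, 48 neurons led by Calb2, Sstr2 and Dsp, with Grpr in 20.8% of neurons. The neuromedin B receptor gene Nmbr was seen as 1 UMI in stellate and 1 in lumbar neurons and 0 elsewhere, so no level can be given.

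Nmb was the only member spread over all ganglia and cell classes. Neurons had 418 UMIs in stellate (5.28 CPM), 362 in lumbar (5.00 CPM), 60 in coeliac (3.34 CPM), 175 in sphenopalatine (2.32 CPM), 78 in pelvic 1 (2.16 CPM) and 64 in pelvic 2 (1.73 CPM). The stellate and lumbar values overlap in their intervals, as do the last 3. Glia stood above neurons in all 6 libraries, at 10.4 CPM in the coeliac to 14.8 CPM in the pelvic 2 library, and endothelial cells at 5.58 to 13.8 CPM, mural cells of the vessel wall at 7.51 to 12.2 CPM and myelinating Schwann cells at 5.21 to 11.8 CPM. Fibroblasts, at 2.14 to 3.09 CPM, lay near the neurons, and macrophages ranged from 1.07 to 6.59 CPM. When cells were thinned to 2000 UMIs, 2.40% to 4.26% of glia and 0.272% to 1.27% of neurons kept an Nmb transcript. Whether the UMIs in neurons were their own or free RNA of other cells was not tested.

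**Figure D3:**
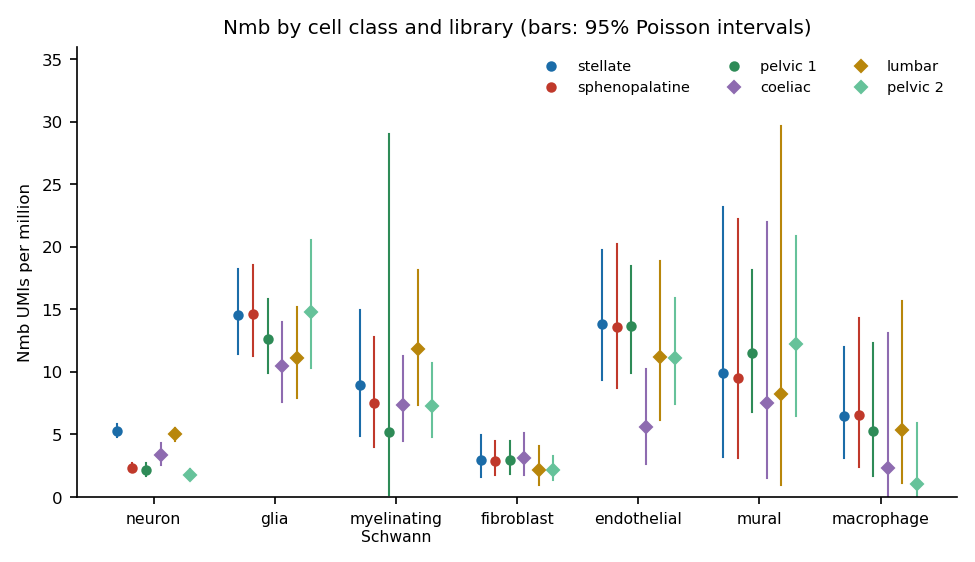
Nmb in CPM for neurons and 6 non-neuronal classes, 1 point per library with its 95% Poisson interval, circles for round 1 and diamonds for round 2. Glia sit at 10.4 to 14.8 CPM in every library and neurons at 1.73 to 5.28 CPM, while fibroblasts sit at 2.14 to 3.09 CPM.

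The neuromedins were low in bulk but differed in place. Nmu had 66 UMIs in sphenopalatine (0.875 CPM) and 47 in stellate neurons (0.594 CPM), whose intervals overlap, 13 in lumbar (0.179 CPM), 4 in pelvic 2, 2 in coeliac and 0 in pelvic 1 neurons. Its sphenopalatine UMIs were spread over many clusters, with 25 in cluster 3 at 2.22 CPM, but 0 in the Tac1-rich clusters 4 and 9. Nms was a pelvic gene, with 58 UMIs in pelvic 2 (1.57 CPM, 8.15% of neurons) and 19 in pelvic 1 (0.527 CPM, 1.71%). The other libraries held 7 UMIs in sphenopalatine, 3 in stellate, 2 in coeliac and 0 in lumbar neurons.

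Pelvic neurons were sorted into types by clustering both libraries together, with the 9 genes left out of the clustering and Grp left out of the naming. Clusters with at least 3 of the study's other leading genes for its pelvic types P1 to P4 are called P1-like (279 neurons in pelvic 1, 162 in pelvic 2), P2-like (247 and 89), P3-like (130 and 33) and P4-like (49 and 31). Cluster 4 (96 and 19 neurons, led by collagen and globin genes) and cluster 5 (75 and 34, led by Wscd1, Areg and Cartpt) stay unnamed. Th and Dbh led the P3-like cluster, the noradrenergic one. The clusters come from the same cells, so their values are a description with no test.

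P2-like neurons were the main Grp neurons. They held 1024 of 1337 UMIs in pelvic 1 (95.1 CPM, 64.8% of neurons) and 4577 of 4978 in pelvic 2 (547 CPM, 91.0%). The level differed between the libraries by 5.75-fold, in a cluster where 0.743% of genes differed by 4-fold or more, and it persisted after thinning to 4000 UMIs, with 30.8% and 69.0% of P2-like neurons positive. Round, chemistry and the pups sampled cannot be told apart here. The unnamed cluster 4 followed with 254 UMIs in pelvic 1 (72.6 CPM) and 240 in pelvic 2 (147 CPM), of which 152 came from 1 neuron (58.8 CPM without it). P1-like neurons, with 4.11 and 7.19 CPM, were close to pelvic glia at 3.20 and 3.37 CPM, and in pelvic 2 they came to 4.64 CPM without a neuron with 44 UMIs. P3-like (0.581 and 1.06 CPM) and P4-like neurons (1.47 and 1.87 CPM) had values below those of the glia, whose cells were shallower, at median depths of 3963 and 12574.5 UMIs, and the part of free RNA in them was not tested. In neurons thinned to 4000 UMIs, Sst, the somatostatin gene, was detected in 68.0% of Grp-positive and 26.6% of Grp-negative neurons of pelvic 1 and in 40.3% and 26.5% in pelvic 2, and Nos1 in 93.0% against 73.7% and 97.2% against 73.8%. The Grp-negative neurons mixed types that differ in Nos1. Its mean thinned share was 98.6% in P1-like, 93.5% in P2-like, 7.67% in P3-like and 8.33% in P4-like neurons. Cartpt was less often detected with Grp in both libraries, at 11.0% against 45.5% and 23.6% against 49.8%, as was Vip, at 33.0% against 58.2% and 55.6% against 72.8%.

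P4-like neurons carried the other 3 pelvic members. Tacr3 was the most even, with 53 UMIs in pelvic 1 (26.0 CPM, 53.1% of neurons) and 71 in pelvic 2 (22.1 CPM, 74.2%), a mean of 24.0 ± 2.71 CPM (SD, n = 2 libraries). No P4-like neuron held more than 10 of these UMIs. Nms had 11 UMIs in pelvic 1 (5.39 CPM, 14.3% of neurons) and 48 in pelvic 2 (15.0 CPM, 71.0%), a mean of 10.2 ± 6.77 CPM, and stayed at or under 0.611 CPM in every other cluster. Tac1 had 79 and 37 UMIs (38.7 and 11.5 CPM), a mean of 25.1 ± 19.2 CPM, but it was found in only 9 and 7 neurons. Of these UMIs, 49 in pelvic 1 and 28 in pelvic 2 came from 1 neuron each, and the levels without them were 15.3 and 2.99 CPM. Fibroblasts of the same libraries had Tac1 at 1.08 and 1.62 CPM, and the P1-like, P2-like and P3-like clusters stayed at or under 0.412 CPM. Cluster 5 came second for Tacr3 (4.89 and 5.91 CPM) and had Tac1 at 0.377 CPM in pelvic 1 and 7.55 CPM in pelvic 2, of which 16 of 23 UMIs lay in 1 neuron. P3-like neurons had Tacr3 at 2.52 and 2.91 CPM. Nmb ranged from 0.657 to 4.90 CPM over the pelvic clusters with P4-like neurons highest (4.90 and 3.12 CPM), but the intervals of most clusters overlap.

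**Figure D4:**
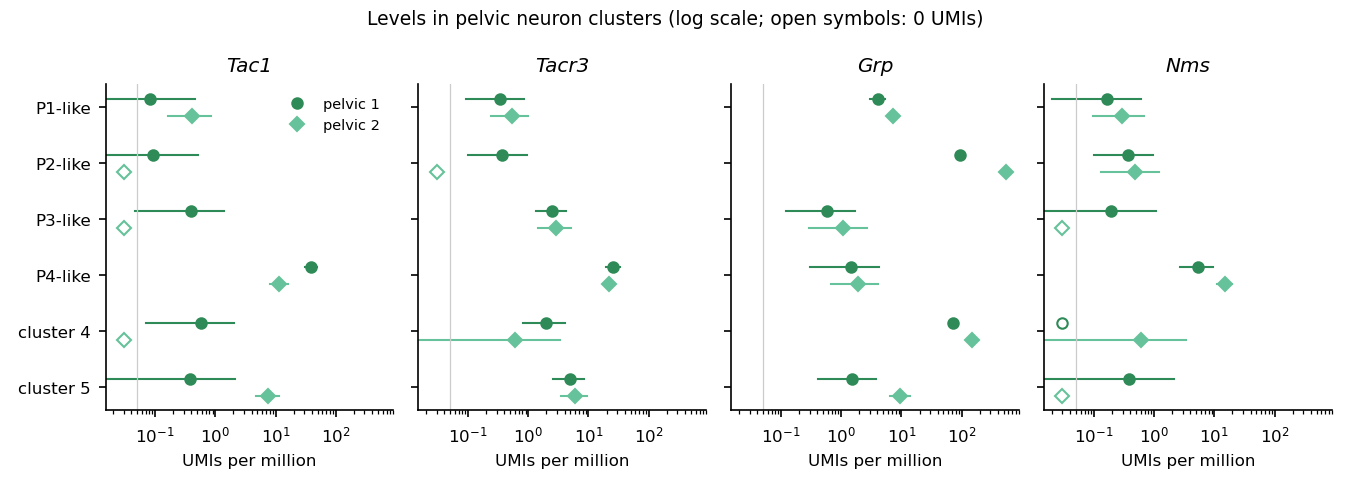
Tac1, Tacr3, Grp and Nms in the 6 pelvic neuron clusters, in CPM (log scale) with 95% Poisson intervals, circles for pelvic 1 and diamonds for pelvic 2, open symbols for 0 UMIs. Tacr3 in P4-like neurons is at 26.0 and 22.1 CPM, and Grp in P2-like neurons at 95.1 and 547 CPM.

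Noradrenergic and cholinergic pelvic neurons were the only groups with replicates. A pelvic neuron was called noradrenergic when its UMIs of Th and Dbh exceeded those of Chat, Slc18a3 and Slc5a7, and cholinergic in the opposite case, which gave 140 and 736 neurons in pelvic 1 and 34 and 331 in pelvic 2. Of the noradrenergic neurons 130 and 33 were P3-like. Grp was higher in cholinergic neurons, at 43.4 against 2.16 CPM in pelvic 1 (12 noradrenergic UMIs) and 150 against 1.04 CPM in pelvic 2 (4 UMIs), ratios of 20.1 (11.5 to 39.1) and 145 (56.6 to 532). Tac1 had 84 cholinergic and 2 noradrenergic UMIs in pelvic 1, 7.66-fold in CPM (2.06 to 64.3). In pelvic 2 it had 67 and 0, 2.60-fold over the floor of 3 UMIs (lower limit of the interval 2.06). Nms had 18 and 1 UMIs (3.28-fold, 0.518 to 137) and 58 and 0 (2.25-fold over the floor, lower limit 1.77). The interval for Nms in pelvic 1, where the noradrenergic neurons had 1 UMI, includes equal levels.

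The summed UMIs of the 4 groups of neurons were tested over all genes with edgeR's quasi-likelihood test, with the library as a block. With 1 residual degree of freedom, the error of a gene was taken almost wholly from other genes. A gene's own disagreement between the 2 libraries therefore carried little weight in its p-value. The test called 20.3% of 14142 genes at an adjusted p under 0.05, 9.19% higher in noradrenergic and 11.1% higher in cholinergic neurons. Of the 9 members 5 passed the filter on low counts, and 3 of these were called, all higher in cholinergic neurons. The difference on the log2 scale, noradrenergic minus cholinergic, was -5.66 (SE 0.271, edgeR adjusted p = 7.2e-93) for Grp, -3.51 (SE 0.743, edgeR adjusted p = 2.694e-05) for Tac1 and -3.28 (SE 1.05, edgeR adjusted p = 0.01166) for Nms. Tacr3 at -0.15 (interval -0.90 to 0.60, edgeR adjusted p = 0.8605) and Nmb at -0.07 (-0.94 to 0.80, edgeR adjusted p = 0.9491) were not called, and these intervals leave room for differences in either direction. For Tacr3 the cholinergic class joins P4-like neurons with P1-like and P2-like neurons that were near 0. The same mixing applies to Tac1 and Nms, so their calls do not describe every cholinergic type. Mean Tac1 was at 0.248, 0.0464 and 25.1 CPM in P1-like, P2-like and P4-like neurons, against 0.194 CPM in P3-like neurons. Mean Nms was at 0.231, 0.425 and 10.2 CPM, against 0.0968 CPM. The calls of Tac1 and Nms, unlike that of Grp, were lost without the block (edgeR adjusted p = 0.099 and 0.2889) and with DESeq2 (adjusted p = 0.08322 and 0.4328). For Grp the SE rose to 0.779 without the block (edgeR adjusted p = 0.01359) and to 1.22 with DESeq2 (adjusted p = 7.025e-05). Without the highest Tac1 neuron of each library the Tac1 difference was -2.45 (edgeR adjusted p = 0.02743), and Nms no longer passed the count filter when its highest neurons were left out.

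The other 10 listed genes make, break down or relay these peptides, and all passed the filter, with 3 higher in noradrenergic neurons, 5 higher in cholinergic neurons and 2 not called, where 20.3% of all genes were called. Of the 8 calls, those of Pcsk2 and Mme held without the block, while the other 6 were lost (edgeR adjusted p = 0.1646 to 0.9083), and that of Plcb1 was also lost with DESeq2 (adjusted p = 0.1292). The prohormone convertase genes, which cut peptide precursors, were higher in noradrenergic neurons, Pcsk2 by 3.00 (SE 0.159, edgeR adjusted p = 1.469e-76) and Pcsk1 by 0.99 (SE 0.162, edgeR adjusted p = 1.774e-08) on the log2 scale. Mme, which encodes the peptide-degrading enzyme neprilysin, was higher by 4.58 (SE 0.313, edgeR adjusted p = 3.984e-46). Later processing went the other way by small amounts, with Cpe, which trims the cut ends, at -0.54 and Pam, which makes the terminal amide, at -0.45. The Gq targets Plcb1, Plcb3 and Plcb4, which are phospholipases, were also higher in cholinergic neurons, at -1.48, -0.77 and -0.55. For Plcb1 and Plcb3 this did not hold in every cholinergic type. Mean Plcb1 was at 8.57, 1.60 and 10.2 CPM in P1-like, P2-like and P4-like neurons, against 1.92 CPM in P3-like neurons. Mean Plcb3 was at 23.5, 42.0 and 14.8 CPM, against 16.9 CPM. Gnaq and Gna11, which encode the coupling G proteins, differed by 0.23 and 0.27 and were not called (edgeR adjusted p = 0.3451 and 0.2247). None of the other 6 ligand and receptor genes of these families (Tac2, Tac4, Tacr2, Brs3, Nmur1, Nmur2) passed the filter in pelvic neurons.

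**Figure D5:**
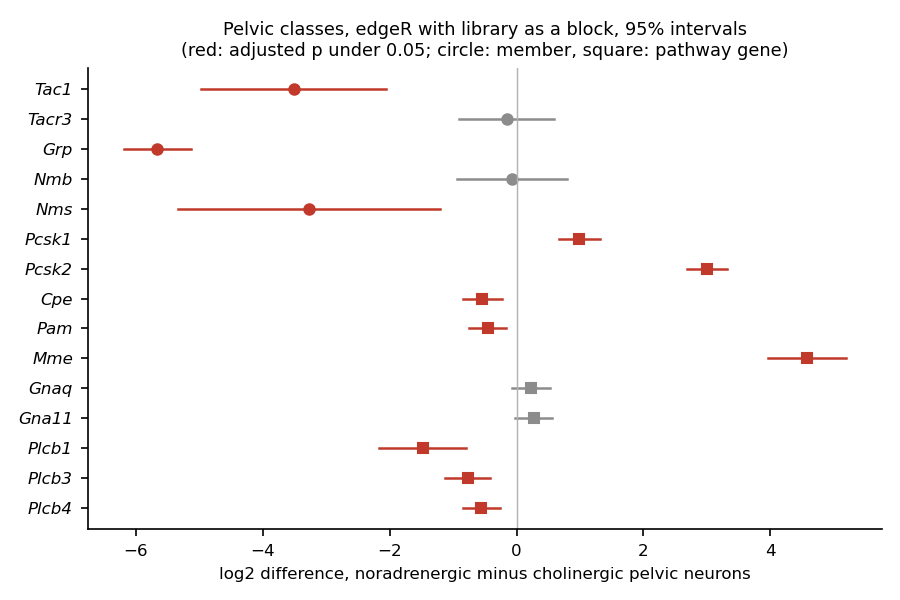
Difference between noradrenergic and cholinergic pelvic neurons on the log2 scale (positive: higher in noradrenergic) with 95% intervals from edgeR, for the 5 members tested (circles) and the 10 processing and signalling genes (squares), red where the adjusted p is under 0.05. Grp at -5.66, Tac1 at -3.51 and Nms at -3.28 lie to the left and Mme at 4.58 and Pcsk2 at 3.00 to the right, while the intervals of Tacr3 and Nmb cross 0.

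The genes with the most similar pattern were sought over 12 points, the 4 pelvic types in each library and the neurons of the other 4 ganglia, among 10006 genes, by Pearson's r of log2(CPM + 1). The points share libraries, rounds and depth, so the coefficients are descriptions with no test. Nearest to Tac1 were Dio2 (0.913), Clstn2 (0.896) and Igfbp4 (0.893), and nearest to Grp were Gata5 (0.897), Prxl2b (0.891) and Macrod2 (0.883). Tacr3 ran with Mesd (0.964) and Tent5c (0.949), and Nms with Hcrtr2 (0.976), Wnt4 (0.976) and Prr16 (0.975). Gata5 and Prr16 were among the genes that named the P2-like and P4-like clusters.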

How the data were processed

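The authors deposited raw UMI counts per gene and droplet for each of the 6 libraries, made with Cell Ranger 6.0.1 against mm10 per the submitters' processing notes. A droplet was retained if it held between 1500 and 11000 genes and if less than 15% of its UMIs were mitochondrial. Neurons had mean sctransform (0.4.2) values over 3 for Stmn2, Stmn3, Gap43 and Tubb3 and under 1.15 for a glial list that includes Ttyh1, Fabp7, Cryab and Mal. Pelvic neurons were joined by mutual nearest neighbours and clustered (Louvain, resolution 0.3, 50 components, 3000 genes; scanpy 1.11.5), other libraries alone with 30 components and 2000 genes. No doublet caller removed cells; leaving out pair-like neurons was an alternative. Levels are counts summed over the cells of a class. Only the pelvic classes were tested, with edgeR 4.0.16 (R 4.3.3, TMM, filterByExpr with a minimum count of 10, Benjamini-Hochberg) on the sums. Both classes of a library share pups and run, which makes the library a block, and the library differences of the classes correlated at r = 0.6135 over genes. On simulated counts for this comparison, 200 genes were changed and 14012 genes passed the count filter. Among the changed genes that passed it, 58.8% of 2-fold and 91.8% of 4-fold changes were recovered. The simulation gave every gene the same spread and both classes the same library effect. These rates therefore do not cover genes whose class difference varies more between the libraries. Every other value has no replicate. Whether the pelvic libraries came from separate pups is not given, so the p-values do not measure the spread between pups. They set the class difference within libraries against an error taken almost wholly from other genes. Alternatives were DESeq2 1.42.0, no block, other scaling, filters, neuron rules and clusterings. All 9 members, the family lists and the co-transmitter list are named; members and lists were chosen with earlier results of these data known. Some gene names and values are not reported here. Sequences were read from GENCODE M21 transcripts, and gene names from the matrices.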

Additional observations from a re-analysis of the deposited data

How the results depend on the processing

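Among the members and the listed processing and signalling genes, no difference between the pelvic classes that the main test called changed sign under the alternatives run. The libraries were set apart for the members only, and the signs of other genes were not compared. Nmb, which was not called, changed sign between the libraries. It was at 1.98 CPM in noradrenergic and 2.20 CPM in cholinergic neurons of pelvic 1, and at 1.81 and 1.72 CPM in pelvic 2. Without the replicate block edgeR called 513 genes between the pelvic classes (234 higher in noradrenergic, 279 in cholinergic neurons) in place of 2867 (1299 and 1568), and DESeq2 with the block called 1464 (648 and 816). Without the block Tac1, Nms, Pcsk1, Cpe, Pam, Plcb1, Plcb3 and Plcb4 were no longer called, and with DESeq2 Tac1, Nms and Plcb1 were not; the cause was not tested. Relative log expression factors, no filter, a stricter class rule and leaving out the cluster led by collagen and globin genes gave 2730 to 3003 calls. In the same-round comparisons with at least 50 CPM, the members past the 4-fold limit went from 2 to 1 for sphenopalatine against stellate neurons (4.36% of genes). They also went from 2 to 1 for pelvic 1 against sphenopalatine neurons (2.41% of genes). Grp does not reach 50 CPM there. For pelvic 1 against stellate neurons the members went from 0 to 1 with a 2-fold limit, which 10.1% of genes passed. With at least 1 CPM more low genes entered. The members then went from 2 to 3 for sphenopalatine against stellate neurons (7.08% of genes) and for pelvic 1 against sphenopalatine neurons (4.92%). Tacr3 was added to both. They went from 1 to 3 for pelvic 2 against lumbar neurons (Tac1, Grp and Nms, 6.16% of genes). Against coeliac neurons they went from 1 to 5 (also Tacr3 and Grpr, 6.37% of genes). Leaving out the highest neuron of each member, an alternative chosen after seeing the data, gave 1 for sphenopalatine and 1 for pelvic 1 against stellate neurons. Tac1, Tacr3, Grp and Nms kept their highest pelvic type under every clustering in which that type was named, though a resolution of 0.6 left no P1-like cluster. Tacr3 was highest in pelvic 1 rather than pelvic 2 when neurons were chosen by log counts (3.60 against 3.19 CPM). After thinning to 4000 UMIs, the highest share moved from lumbar to pelvic 2 neurons for Tacr1 (0.225% against 0.285%) and from lumbar to stellate neurons for Nmb (2.02% against 2.49%). The Tacr1 share of pelvic 2 was a single neuron (1 after thinning), so this move carries no weight. Leaving out a pelvic library left no residual degrees of freedom, so the ratios within each library stand in its place. Depth limits most the members under about 1 CPM, whose placement among clusters rests on the small UMI counts given beside them.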

Other observations

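Some cells that missed the neuron criteria formed clusters with neuronal markers, kept apart from the neurons above. In pelvic 1, such a cluster of 56 cells led by Adcyap1, Sst and Calcb held 47 UMIs of Tacr3 (26.8 CPM, 53.6% of cells), 27 of Tac1 (15.4 CPM) and 17 of Nms (9.69 CPM), near the levels of P4-like neurons, and another of 57 cells held 48 UMIs of Grp (36.4 CPM, 35.1%). In pelvic 2, the only such cluster, 61 cells led by Chgb and Chga, had 0 UMIs of Tac1, 5 of Tacr3 (3.91 CPM), 2 of Nms and 9 of Grp (7.04 CPM). It shared Chga, Chgb, Th and Dbh among its leading genes with a further pelvic 1 cluster, of 163 cells. No such cluster of pelvic 2 was led by Adcyap1 and Sst, so the libraries cannot be compared for that pattern. In the sphenopalatine library such a cluster of 69 cells held 146 UMIs of Tac1 (88.6 CPM, 40.6%).

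The neurokinin B gene Tac2, which is not a member, was like Tac1 highest in sphenopalatine neurons, with 5070 UMIs (67.2 CPM, 52.6% of neurons). Lumbar neurons held 103 (1.42 CPM) and each other library at most 36. Whether Tac2 and Tac1 lay in the same sphenopalatine neurons was not tested. Tac4, the gene of hemokinin, was instead found in stellate (114 UMIs, 1.44 CPM) and lumbar neurons (70 UMIs, 0.966 CPM). The neuromedin receptor gene Nmur2 had 56 UMIs in sphenopalatine neurons (0.742 CPM), and Brs3 had 0 in all neurons.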
